A study of Mus musculus with 17 samples.

Results

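Retinoid handling was followed through 9 genes of 24015 listed in the deposited files: Stra6, Rbp4, Crabp1, Crabp2, Rdh10, Dhrs3, Aldh1a2, Cyp26a1 and Rarb. They were chosen by name for their known roles, with earlier results of these data known. All 9 were found by symbol, and all 9 passed the filter on low counts in the comparisons with fibroblasts. The counts come from 17 RNA-seq libraries, all from cells of the CD-1 mouse background. The control group was embryonic fibroblasts (MEF), with 3 libraries, grown for 3 passages in MEF medium. XEN cells, a stem cell line type of the extraembryonic endoderm that lines the yolk sac, were sequenced in ESC medium (3 libraries) and XEN medium (3 libraries). For induced XEN (iXEN) cells, which the series' title traces to the reprogramming factors OSKM, there were 4 libraries per medium. Both endoderm cell types had 10 passages in ESC medium and then 5 in ESC or XEN medium, so no XEN or iXEN library was free of ESC medium in its past. How OSKM were delivered, and whether the lines were clones, is not given in the sources used here. Libraries carry the numbers of their labels, which are 1, 2 and 3 (MEF), 1, 2 and 7 (XEN) and 1, 2, 6 and 9 (iXEN), and lists of values follow that order.

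Retinol, the alcohol form of vitamin A, travels in blood bound to the carrier Rbp4 and enters cells through the membrane receptor Stra6. Inside the cell it is oxidised to retinal, which Rdh10 does, and reduced back again, which Dhrs3 does. Aldh1a2 turns retinal into retinoic acid. Crabp1 and Crabp2 bind the acid in the cytosol, nuclear retinoic acid receptors such as Rarb pass the signal to genes, and Cyp26a1 breaks the acid down. Extraembryonic endoderm of the yolk sac is a tissue that takes up and passes on vitamin A for the embryo, and Rarb, Cyp26a1, Dhrs3, Stra6 and Crabp2 are known as genes that retinoic acid induces.

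Pairs of retinoic acid receptor and retinoid X receptor bind direct repeats of a short element, and the promoters of Rarb and Cyp26a1 hold a repeat of this kind. RefSeq promoter windows of GRCm38.p6 (250 bases before and 50 after a start site) were at hand for 7 of the 9 genes, in 13 windows, and Crabp2 and Rdh10 had no entry. The search took a pair of 6-base elements, each spelled as AGGTCA or as the known variants AGTTCA, the form GGGTCA and the form GGTTCA, in the same direction with 5 bases between them (DR5), on both strands. A DR5 was found in 2 of the 13 windows, those of Cyp26a1 and Rarb. Both stretches are shown with the repeat in capitals and 6 bases on either side, each on the strand of its gene.
Cyp26a1: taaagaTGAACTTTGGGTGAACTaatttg
Rarb: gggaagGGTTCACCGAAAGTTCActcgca
The first stretch is chr19:37697770-37697798 on the plus strand and the second chr14:16575507-16575535 on the minus strand. The repeat lay 32 to 16 bases before the start site of the window in Cyp26a1, reading on the other strand, and 53 to 37 bases before it in Rarb, reading on the gene's strand. Read along the repeat from its 5′ end, 15 of 17 positions were the same in both genes, and the 2 differences from Rarb to Cyp26a1 were G1A and G9C. A DR5 was present in 32 of 32851 windows of all genes (0.0974%). The same elements with 1 or 2 bases between them were in 0 of the 13 windows and in 0.222% and 0.268% of all windows. A match of letters is a description of the window, and no binding was measured.

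The libraries held 20071567 to 45914262 counts in genes. Values are CPM (counts scaled by library size, with TMM factors), which are not corrected for gene length, so levels are compared between libraries and not between genes. The summed level of 12 fibroblast markers was 40618 to 55032 CPM in MEF. It was 8177 CPM in XEN cells in ESC medium 1, 2586 and 1181 CPM in iXEN cells in XEN medium 2 and 9, and at most 430 CPM in the other 11 endoderm libraries (430 CPM in XEN cells in ESC medium 2, with Col1a1 at 137 CPM), where XEN cells in XEN medium had 2 of the 12 (Lum and Lox) at 0. The summed level of 8 extraembryonic endoderm markers was 749 to 950 CPM in MEF and 1466 to 4223 CPM in the XEN and iXEN libraries, lowest in the XEN libraries numbered 7. In bulk RNA, fewer cells of a type and less RNA per cell cannot be told apart. Fibroblasts also differed from the endoderm cells in medium and passages, which cannot be told apart from cell type.

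Against fibroblasts, the endoderm cells held far more mRNA of the retinol receptor Stra6 and of the acid-degrading enzyme Cyp26a1, while the cytosolic acid binders Crabp1 and Crabp2 and the acid-making Aldh1a2 fell in 2 or 3 of the 4 comparisons. In iXEN cells in ESC medium, 5 of the 9 genes rose and 3 fell, where edgeR called 46.7% of 14352 genes in either direction, 20.8% higher and 25.9% lower. In XEN cells in ESC medium, 2 rose and 1 fell (25.0% of 14001 genes called, 11.4% higher and 13.7% lower). In XEN medium, 2 rose and 2 fell in iXEN cells (32.6% of 14438 called, 17.7% higher and 14.9% lower), and 5 rose and 3 fell in XEN cells (47.5% of 14390 called, 23.0% higher and 24.5% lower). A gene is called, and said to rise or fall, where its adjusted p from edgeR's quasi-likelihood test is under 0.05. The 4 comparisons share the 3 MEF libraries. Only Stra6 and Cyp26a1 of the 9 lay above every MEF library in all 14 endoderm libraries, as did 10.5% of 15249 genes, and none of the 9 lay below every MEF library in all 14, as 17.8% of genes did.

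**Figure D1:**
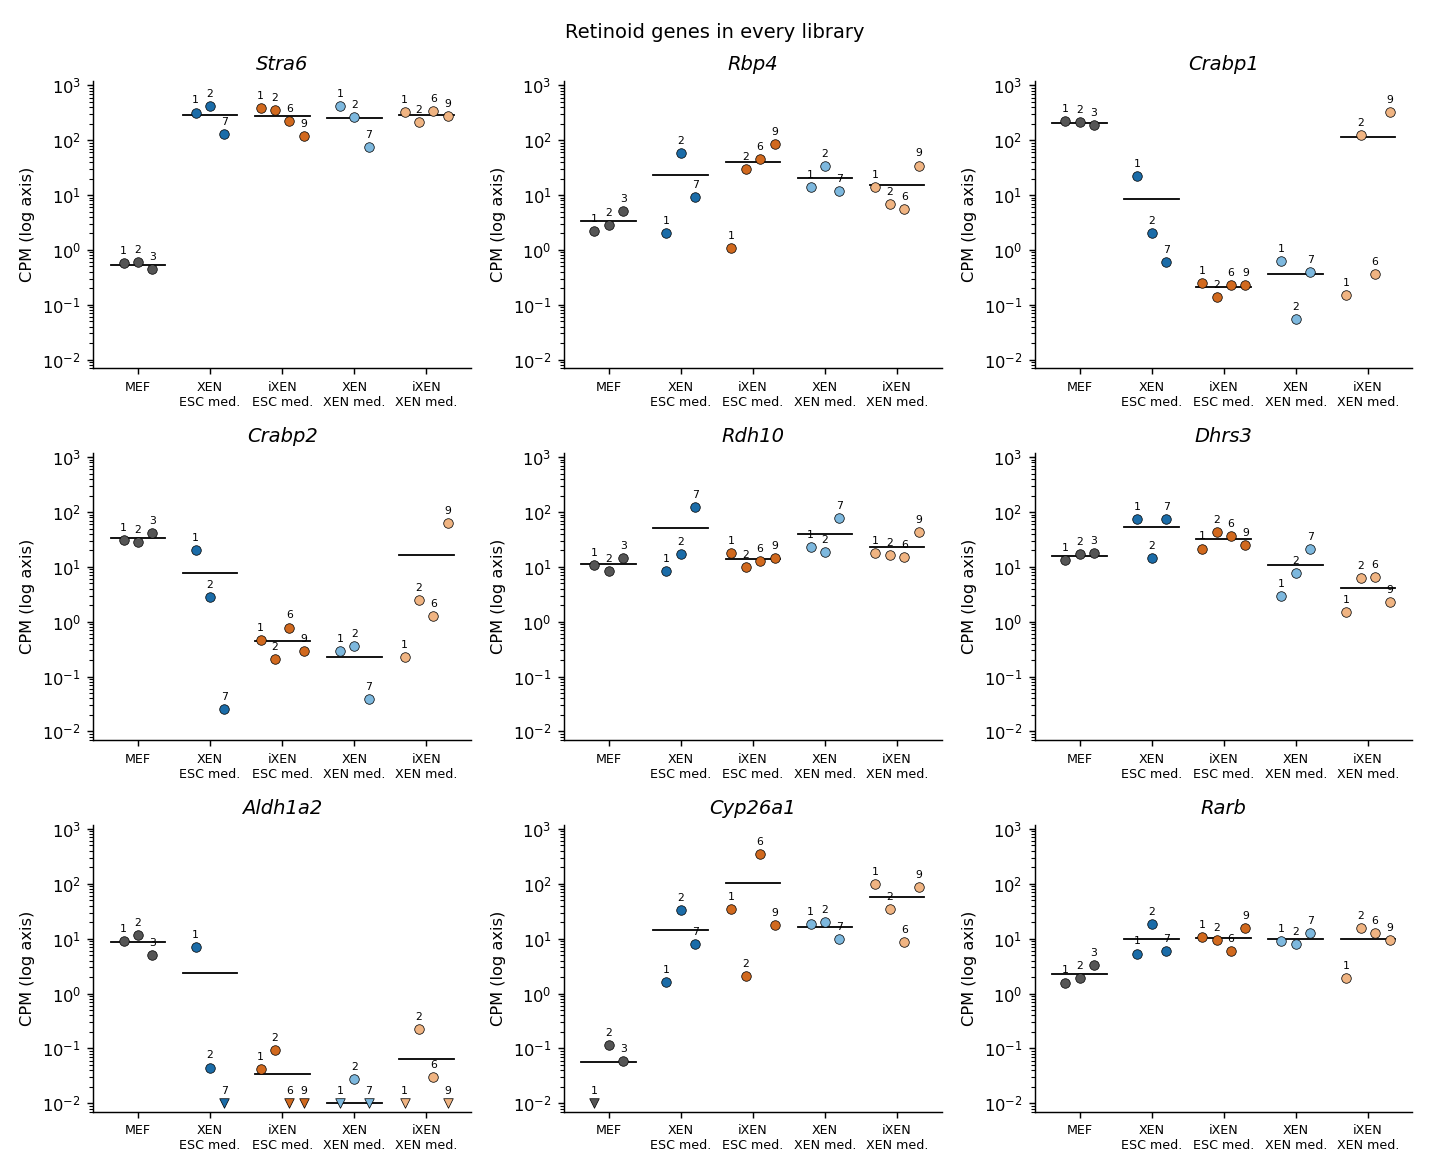
CPM of the 9 retinoid genes in every library (log axis), by group, with each library's number beside its point and a bar at the group mean; triangles at the bottom mark libraries with 0 counts. Stra6 and Cyp26a1 sit above the MEF points in all 14 XEN and iXEN libraries, and Crabp1 in iXEN cells in XEN medium is at 124 CPM in library 2, below the MEF points, and at 330 CPM in library 9, above them.

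Stra6, the receptor through which retinol enters from its carrier, lay at 0.581, 0.602 and 0.442 CPM in MEF. It was at 320, 426 and 130 CPM in XEN cells and at 383, 360, 222 and 120 CPM in iXEN cells in ESC medium. In XEN medium it was at 423, 261 and 75.9 CPM in XEN cells and at 330, 211, 339 and 277 CPM in iXEN cells. Every endoderm library was thus far above every MEF library, with XEN 7 lowest of the XEN libraries in both media. The log2 fold change against MEF was 9.12 (SE 0.62, edgeR adjusted p = 0.0026) in XEN cells in ESC medium, 9.003 (SE 0.57, adjusted p = 8.49e-06) in iXEN cells in ESC medium, 8.91 (SE 0.81, adjusted p = 0.000763) in XEN cells in XEN medium and 9.13 (SE 0.36, adjusted p = 9.39e-05) in iXEN cells in XEN medium. Among the 14 endoderm libraries its highest and lowest levels were 5.61-fold apart, the narrowest span of the 9 genes.

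Rbp4, the blood carrier of retinol, varied far more. It was at 2.25, 2.90 and 5.12 CPM in MEF, at 2.02, 58.6 and 9.23 CPM in XEN cells and 1.09, 29.9, 45.5 and 87.1 CPM in iXEN cells in ESC medium, and at 14.3, 34.4 and 12.04 CPM in XEN cells and 13.8, 6.86, 5.53 and 34.6 CPM in iXEN cells in XEN medium. Both endoderm libraries numbered 1 in ESC medium lay below all MEF libraries. Every library in XEN medium lay above all MEF libraries, as for 28.6% of 14390 genes in XEN cells and 22.2% of 14438 in iXEN cells. Rbp4 rose in iXEN cells in ESC medium (log2 fold change 3.60, SE 1.13, edgeR adjusted p = 0.0294) and in XEN cells in XEN medium (2.61, SE 0.56, adjusted p = 0.0109). It was not called in XEN cells in ESC medium (2.81, adjusted p = 0.12) or in iXEN cells in XEN medium (2.25, adjusted p = 0.0566). The call in iXEN cells in ESC medium was lost without any 1 of the MEF libraries (adjusted p = 0.0983, 0.0944 and 0.0676) and without iXEN 9 (2.93, 0.0604). The call in XEN cells in XEN medium was lost in a fit of all 5 groups (0.116), and its value was 2.01 without XEN 2.

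Crabp1, which binds retinoic acid in the cytosol, was at 221, 218 and 187 CPM in MEF. In ESC medium it was at 22.3, 2.06 and 0.60 CPM in XEN cells and at 0.252, 0.139, 0.231 and 0.229 CPM in iXEN cells. Its levels in XEN medium were 0.637, 0.0550 and 0.393 CPM in XEN cells and 0.152, 124, 0.361 and 330 CPM in iXEN cells. The iXEN libraries in XEN medium thus fell into 2 and 9, below and above the fibroblast range, and 1 and 6, under 1 CPM. Crabp1 fell in iXEN cells in ESC medium (log2 fold change -9.92, SE 0.27, edgeR adjusted p = 4.14e-07), in XEN cells in XEN medium (-9.09, SE 0.78, adjusted p = 0.000609) and in XEN cells in ESC medium (-4.59, SE 1.32, adjusted p = 0.0486). The last call was lost without any 1 of the MEF libraries (0.121 to 0.13), without XEN 2 (-3.95, 0.0823), with RLE size factors (0.0512) and in a fit of all 5 groups (0.0895). It was -7.26 (0.0056) without XEN 1 and -3.87 (0.0383) without XEN 7, and the value in XEN cells in XEN medium was -9.69 without XEN 1. In iXEN cells in XEN medium the value was -0.73 (95% interval -5.06 to 3.60).

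Crabp2, which carries the acid to its nuclear receptors, was at 31.2, 28.5 and 41.1 CPM in MEF. In ESC medium it was at 20.2, 2.87 and 0.0261 CPM in XEN cells, the last being 1 count, and at 0.462, 0.209, 0.784 and 0.294 CPM in iXEN cells. In XEN medium it was at 0.294, 0.358 and 0.0393 CPM in XEN cells and at 0.228, 2.53, 1.29 and 62.5 CPM in iXEN cells. Only iXEN 9 in XEN medium exceeded the MEF libraries. Crabp2 fell in iXEN cells in ESC medium (-6.27, SE 0.47, edgeR adjusted p = 2.02e-05) and in XEN cells in XEN medium (-7.16, SE 0.77, adjusted p = 0.00127). It was not called in XEN cells in ESC medium (-2.07, 95% interval -5.74 to 1.59; -4.52, adjusted p = 0.0923, without XEN 1) or in iXEN cells in XEN medium (-0.86, -4.45 to 2.72).

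The 3 endoderm libraries highest in Crabp1 were the 3 with the highest summed fibroblast markers, and the highest Crabp2 levels were in 2 of them. Crabp2 in iXEN cells in XEN medium 2 was below its level in XEN cells in ESC medium 2, which held fibroblast markers at 0.885% of the MEF mean. In XEN cells in ESC medium 1, the summed fibroblast markers reached 16.8% of the MEF mean, Crabp1 10.7%, Crabp2 60.1% and Aldh1a2 82.7%, and the single markers ranged from 1.34% (Lum) to 76.5% (Thy1). In iXEN cells in XEN medium 2, the markers reached 5.32% (1.98% for Lox to 57.6% for Thy1), Crabp1 59.4%, Crabp2 7.54% and Aldh1a2 2.58%. In iXEN cells in XEN medium 9, the markers reached 2.43%, while Crabp1 was at 158%, Crabp2 at 186% and Aldh1a2 at 0 counts. The single markers in that library ran from 0 for Lum, with Postn at 0.00345%, Thy1 at 0.0718% and Col1a1 at 2.72%, to 12.9% for Pdgfrb and 75.7% for the mesenchymal transcription factor Twist1. Crabp1 and Crabp2 were thus above each of the 12 markers in iXEN 9. In iXEN 2, Crabp1 was just above Thy1, the highest marker, and Crabp2 lay within the range of the markers. In XEN 1, Crabp1 and Crabp2 lay within that range and Aldh1a2 lay above it. The part of fibroblast transcripts in these levels was not tested. Without iXEN 2 and 9, Crabp1 in iXEN cells in XEN medium was at -9.56 against MEF (edgeR adjusted p = 0.000121) and Crabp2 at -5.37 (adjusted p = 0.00237).

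**Figure D2:**
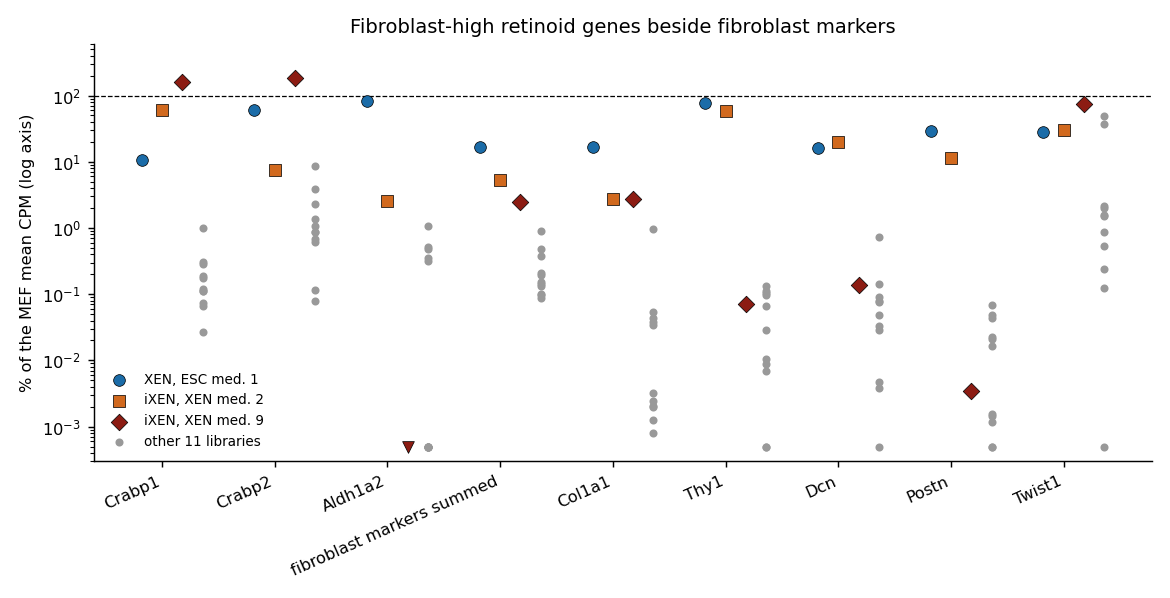
Level of Crabp1, Crabp2, Aldh1a2, the 12 fibroblast markers summed and 5 of these markers as a percentage of the MEF mean CPM (log axis), in the 3 endoderm libraries with the highest summed fibroblast markers and, in grey, in the other 11 XEN and iXEN libraries; points at the bottom are at 0 counts and the dashed line is the MEF mean. In iXEN cells in XEN medium 9, Crabp1 (158%) and Crabp2 (186%) lie above the line while the summed markers are at 2.43%.

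Rdh10, the dehydrogenase that makes retinal from retinol, was at 10.7, 8.28 and 14.4 CPM in MEF. It was at 8.35, 16.8 and 126 CPM in XEN cells and at 18.1, 9.92, 12.5 and 14.3 CPM in iXEN cells in ESC medium. Its levels in XEN medium were 22.6, 18.7 and 78.5 CPM in XEN cells and 17.9, 16.1, 15.2 and 43.7 CPM in iXEN cells. The libraries of XEN 7 were highest in both media. Every library in XEN medium lay above the fibroblasts, as for 28.6% of 14390 genes in XEN cells and 22.2% of 14438 in iXEN cells. The iXEN libraries in ESC medium overlapped with the fibroblasts. Rdh10 rose in XEN cells in XEN medium (1.90, SE 0.61, edgeR adjusted p = 0.0423), a call lost without any 1 of the MEF libraries (0.0927 to 0.132) and in a fit of all 5 groups (0.0878), with a value of 0.95 (0.0255) without XEN 7. The other values were 2.26 in XEN cells in ESC medium (95% interval -0.19 to 4.71), 0.34 in iXEN cells in ESC medium (-0.37 to 1.04) and 1.17 in iXEN cells in XEN medium (adjusted p = 0.103).

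Dhrs3, which reduces retinal back to retinol, was at 13.1, 16.9 and 18.1 CPM in MEF. In ESC medium it was at 73.9, 14.5 and 75.0 CPM in XEN cells and at 21.6, 43.9, 36.4 and 24.9 CPM in iXEN cells. In XEN medium it was at 2.89, 7.73 and 21.4 CPM in XEN cells and at 1.48, 6.18, 6.47 and 2.32 CPM in iXEN cells. All iXEN libraries were above MEF in ESC medium, as for 23.3% of 14352 genes, and below MEF in XEN medium, as for 29.0% of 14438 genes. Dhrs3 rose against MEF in iXEN cells in ESC medium (1.02, SE 0.29, edgeR adjusted p = 0.0206) and fell in iXEN cells in XEN medium (-1.87, SE 0.58, adjusted p = 0.0435). The first call was lost without MEF 1 (0.0939), MEF 2 (0.0575) or iXEN 2 (0.051) and in a fit of all 5 groups (0.289), and the second without any 1 of the MEF libraries (0.104 to 0.134) or iXEN 9 (0.0716). XEN cells gave 1.84 in ESC medium (adjusted p = 0.0738; 0.00572 without XEN 2) and -0.53 in XEN medium (adjusted p = 0.542; -1.54 and 0.0285 without XEN 7).

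Aldh1a2, the main retinal-oxidising enzyme of the early embryo, was at 9.18, 11.6 and 4.98 CPM in MEF. It was at 7.11, 0.0448 and 0 CPM in XEN cells and at 0.0420, 0.0929, 0 and 0 CPM in iXEN cells in ESC medium. Its levels in XEN medium were 0, 0.0275 and 0 CPM in XEN cells and 0, 0.221, 0.0301 and 0 CPM in iXEN cells. A single endoderm library, XEN 1 in ESC medium, was in the range of the fibroblasts, and 7 of the 14 had 0 counts, at a depth where 3 counts correspond to 0.0653 to 0.149 CPM. Aldh1a2 fell in iXEN cells in ESC medium (-7.59, SE 0.79, edgeR adjusted p = 0.000116) and in XEN medium (-6.82, SE 1.27, adjusted p = 0.00805), with -8.88 and -9.13 without the iXEN library numbered 2 of each medium. XEN cells in XEN medium had 1 count in all, a ratio of 1009 between MEF and these libraries (95% counting interval 180 to 39889, which covers counting error only; edgeR adjusted p = 0.00111). In XEN cells in ESC medium the value was -1.79 (95% interval -6.28 to 2.69), and without XEN 1 it was -8.56 (adjusted p = 0.00988).

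Cyp26a1, the cytochrome P450 that clears retinoic acid and one of the genes with a DR5 shown above, had 0, 0.113 and 0.0589 CPM in MEF, 5 counts in all. It was at 1.61, 33.7 and 7.96 CPM in XEN cells and at 34.9, 2.09, 355 and 17.6 CPM in iXEN cells in ESC medium. In XEN medium it was at 18.8, 20.4 and 9.88 CPM in XEN cells and at 101, 34.6, 8.84 and 88.3 CPM in iXEN cells. All 14 endoderm libraries exceeded the MEF libraries, yet they spanned 221-fold among themselves, the widest span of those genes with more than 3 counts in their lowest library. Cyp26a1 rose by 7.90 (SE 1.55, edgeR adjusted p = 0.0172) in XEN cells and 10.74 (SE 2.33, adjusted p = 0.00563) in iXEN cells in ESC medium, and by 8.10 (SE 0.85, adjusted p = 0.00118) in XEN cells and 9.95 (SE 1.31, adjusted p = 0.00297) in iXEN cells in XEN medium. In XEN cells in ESC medium the call was lost without any 1 of the MEF libraries (0.0685 to 0.087), and the value was 6.46 without XEN 2. In iXEN cells in ESC medium it was 8.23 (0.00126) without iXEN 6. Without MEF 2 the 4 values were 8.67 to 11.49.

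Rarb, the nuclear receptor whose promoter holds the other repeat, was at 1.59, 1.92 and 3.36 CPM in MEF. It was at 5.37, 18.8 and 5.90 CPM in XEN cells and at 10.8, 9.46, 5.90 and 15.6 CPM in iXEN cells in ESC medium. Its levels in XEN medium were 8.91, 7.95 and 12.5 CPM in XEN cells and 1.94, 15.6, 12.8 and 9.61 CPM in iXEN cells. Of the 14 endoderm libraries, 13 lay above the MEF libraries, the exception being iXEN 1 in XEN medium. The 4 fold changes were close to each other, but only 2 were called: 2.21 (SE 0.44, edgeR adjusted p = 0.00378) in iXEN cells in ESC medium and 2.14 (SE 0.42, adjusted p = 0.00799) in XEN cells in XEN medium. XEN cells in ESC medium gave 2.18 (adjusted p = 0.0538; 0.0268 to 0.048 without XEN 1, 2 or 7) and iXEN cells in XEN medium gave 2.23 (0.0551; 0.00722 without iXEN 1).

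**Figure D3:**
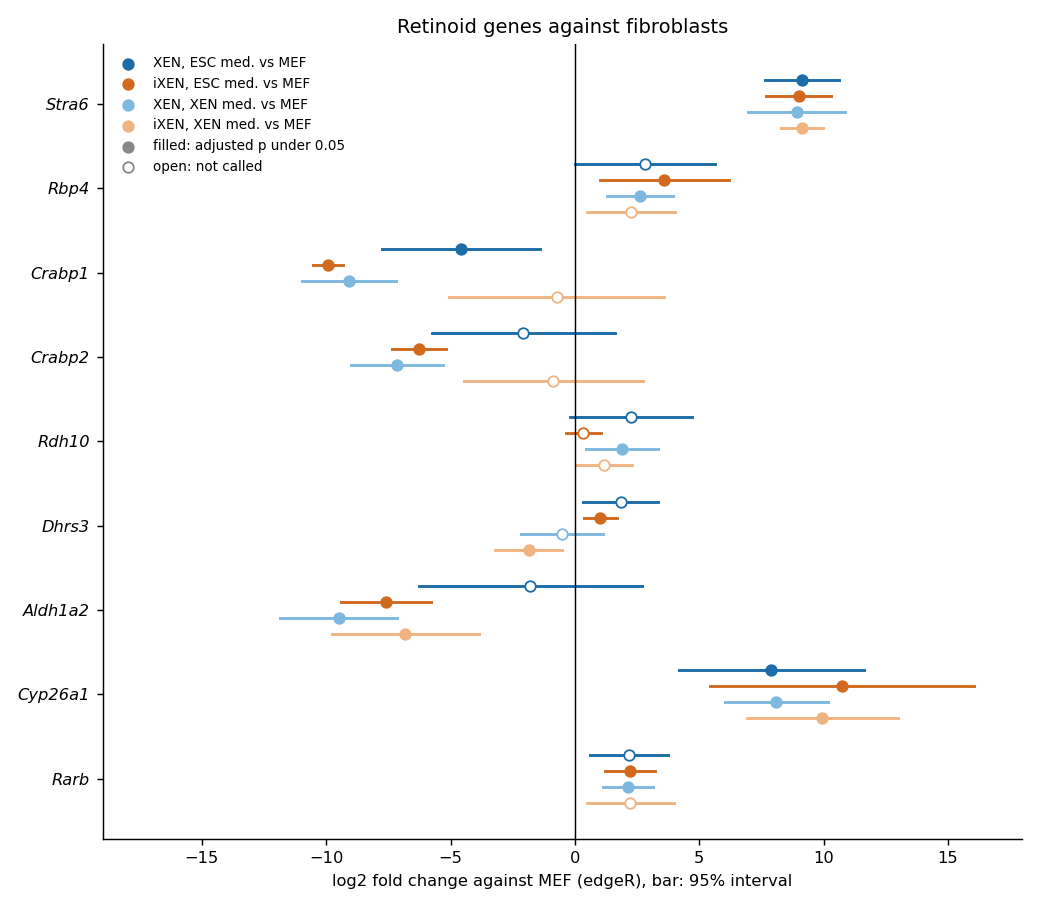
log2 fold change of the 9 genes against MEF in the 4 groups of endoderm libraries, with 95% intervals of the edgeR fit; filled points have an adjusted p under 0.05. Stra6 and Cyp26a1 lie to the right in all 4 comparisons, Crabp1, Crabp2 and Aldh1a2 lie to the left with wide intervals in the groups that hold XEN 1 in ESC medium or iXEN 2 and 9 in XEN medium, and the points of Dhrs3 lie on the right in ESC medium and on the left in XEN medium.

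iXEN cells were then set against XEN cells in the same medium, which asks how alike the induced and the established lines were in these genes. edgeR called 0 of 12944 genes in ESC medium and 0 of 13263 in XEN medium (0%), and with them 0 of the 8 members tested in each. At an unadjusted p under 0.05 there were 1770 and 544 genes, and DESeq2 called 530 and 137. Aldh1a2 was under the filter in both comparisons. Stra6 had the narrowest interval of the 8 in either medium, with -0.13 (95% interval -1.29 to 1.03) in ESC medium and 0.20 (-0.97 to 1.38) in XEN medium, and Rarb was at 0.04 (-1.23 to 1.32) and 0.05 (-1.48 to 1.58). Cyp26a1 was at 2.85 (-0.97 to 6.67) and 1.85 (0.10 to 3.60; edgeR adjusted p = 0.985), with overlapping libraries in both. Its value in ESC medium was 0.33 without iXEN 6 and 4.39 without XEN 2. These intervals do not show that the cell types were alike.

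Among the members that passed the filter, Crabp1 and Crabp2 had the largest differences between the cell types, in opposite directions in the media. In ESC medium they were lower in iXEN cells, by -5.32 (edgeR adjusted p = 0.25) and -4.18 (0.344), and DESeq2 called both (adjusted p = 0.000104 and 0.0401). In XEN medium they were higher in iXEN cells, by 8.31 (adjusted p = 0.985) and 6.23 (0.985), and DESeq2 called Crabp1 (0.000248). Without the 3 libraries highest in fibroblast markers, Crabp1 was at -2.63 in ESC medium and -0.50 in XEN medium, and Crabp2 at -1.71 and 1.72. The interaction of cell type and medium was 13.65 for Crabp1 and 10.40 for Crabp2 (edgeR adjusted p = 0.221 for each; DESeq2 2.43e-07 and 0.000203), and 2.13 and 3.43 without those libraries. edgeR called 0 of 14357 genes in the interaction (0%), with 2131 at an unadjusted p under 0.05 and 488 by DESeq2.

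The change of medium was tested within each cell type. edgeR called 0 of 13241 genes in XEN cells and 0 of 12920 in iXEN cells (0%), with 746 and 3018 at an unadjusted p under 0.05 and 89 and 1638 by DESeq2. Dhrs3 was the member with the most regular shift. It was lower in XEN medium in all 7 same-numbered pairs, as 2.54% of 14357 genes were. The 4 iXEN pairs were taken to share only a number, and XEN 1 and 2 were not clearly paired. The ratios thus describe libraries and not lines. The ESC medium library held 25.6, 1.87 and 3.51 times the level of its XEN medium counterpart in XEN cells, and 14.6, 7.11, 5.63 and 10.8 times in iXEN cells. The groups of iXEN libraries did not overlap, as was so with XEN medium lower for 5.81% of 12920 genes, while those of XEN cells did. The 4 iXEN pairs would thus go down under any matching of the libraries.

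In iXEN cells Dhrs3 was at -2.92 in XEN medium against ESC medium (SE 0.54, edgeR adjusted p = 0.0581), just over the threshold. DESeq2 (adjusted p = 1.11e-05), an edgeR fit of all 5 groups (0.0449), and edgeR without iXEN 6 in ESC medium (0.0454) or without iXEN 2 in XEN medium (0.0422) called it. Without any 1 of the other 6 libraries the adjusted p was 0.0552 to 0.198. In XEN cells it was at -2.40 (95% interval -4.53 to -0.27, edgeR adjusted p = 0.8; DESeq2 0.32). The difference between the cell types was -0.55 (95% interval -2.72 to 1.63). An average of the medium effect over both cell types, added after these values were seen, gave -2.64 (SE 0.54, edgeR adjusted p = 0.207; DESeq2 0.000199), and edgeR called 0 of 14357 genes (0%), with 1847 at an unadjusted p under 0.05 and 319 by DESeq2.

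No other member differed in the same direction in all 7 same-numbered pairs. Counts over these pairs describe libraries that share a number and not lines. In XEN cells the medium effect on Stra6 was -0.23 (95% interval -1.86 to 1.40), and for iXEN cells it was 0.11 (-0.72 to 0.94). Rarb was at -0.06 (-1.52 to 1.41) and -0.03 (-1.36 to 1.29) in the same order. Rbp4, at -0.22 and -1.38, was higher in XEN medium in 2 of 3 XEN pairs and lower in 3 of 4 iXEN pairs. Cyp26a1, at 0.17 and -0.81, was higher in XEN medium in 2 of 3 XEN pairs and 3 of 4 iXEN pairs and its value in iXEN cells was 1.67 without iXEN 6 in ESC medium, the library at 355 CPM. Crabp2 was at 5.32 in iXEN cells (edgeR adjusted p = 0.118), and 0.81 without iXEN 2 and 9, and DESeq2 gave no adjusted p for it. Crabp1 in iXEN cells was under the filter, with 5029 and 11392 counts in 2 of the 8 libraries and 4 to 12 counts in the other 6. In XEN medium it was at 124 CPM in iXEN 2 and 330 CPM in iXEN 9, and under 1 CPM in iXEN 1 and 6. The iXEN libraries in ESC medium were at 0.139 to 0.252 CPM. DESeq2 (log2 fold change 9.11, adjusted p = 1.65e-05) and the edgeR fit of all 5 groups (9.12, 0.045) called Crabp1 between media, and edgeR without a filter did not (9.07, 0.0938).

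**Figure D4:**
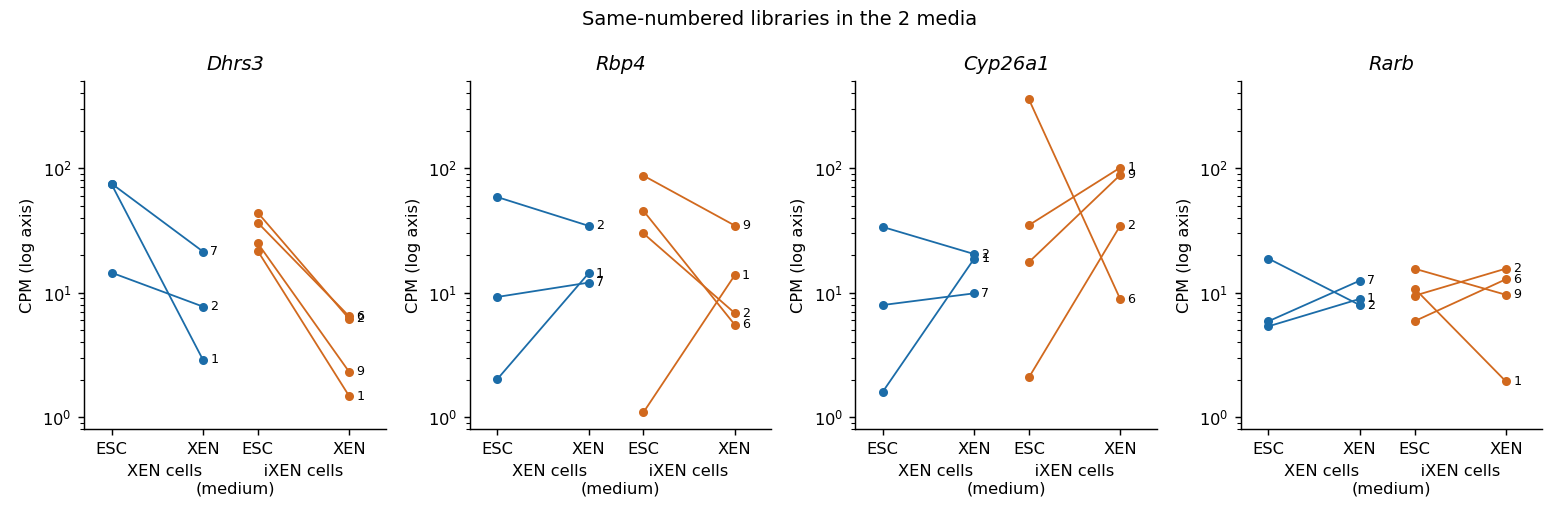
CPM (log axis) of Dhrs3, Rbp4, Cyp26a1 and Rarb in ESC and XEN medium, XEN cells in blue and iXEN cells in orange. A line joins libraries of the same number, taken in iXEN cells to share only that number and not clearly paired for XEN 1 and 2. All 7 lines of Dhrs3 go down, by 1.87 to 25.6 times, while the lines of the other 3 genes cross.

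By mean CPM, the groups stood in this order. MEF were last for Stra6, Rbp4, Rdh10, Cyp26a1 and Rarb, first for Crabp1, Crabp2 and Aldh1a2, and between the media for Dhrs3, after both groups in ESC medium and before both in XEN medium. For Stra6, Cyp26a1, Rbp4 and Rarb, neighbours among the 4 endoderm groups overlapped, and MEF did not overlap with the group next above. MEF did overlap with both groups in ESC medium for Rbp4 and with iXEN cells in XEN medium for Rarb. Over all genes tested, an endoderm group lay wholly above MEF for 21.6% to 28.6%, by group. For Rdh10, Crabp1, Crabp2 and Aldh1a2 each group overlapped with its neighbour in the order, MEF included. For Dhrs3 the only neighbours in the order without overlap were iXEN cells in ESC medium (31.7 ± 10.3 CPM, SD, n = 4) and MEF (16.0 ± 2.60 CPM, SD, n = 3). Both of these groups, though not its neighbours, also lay wholly above iXEN cells in XEN medium (1.48 to 6.47 CPM).

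The genes most like each member over the 17 libraries were ranked by Pearson's r of log2 CPM among 15249 genes. These values describe libraries that share their cell types and are dominated by the step from MEF to endoderm cells. Stra6 followed Frmpd1 (0.994) and Adora1 (0.984), an adenosine receptor. Cyp26a1 followed Star (0.911), Npr1 (0.907) and Clmn (0.906), and Rarb followed the laminin receptor chain Itga6 (0.917), Ppfibp2 (0.898) and 2810429I04Rik (0.889). Crabp1 was most like Irx1 (0.978) and Arhgef10l (0.972). Crabp2 was most like the retinoic acid receptor Rarg (0.963) and the body axis genes Hoxb7 (0.962) and Hoxc8 (0.960), and Aldh1a2 like the gap junction gene Gjb2 (0.979), Angpt4 (0.977) and Smoc2 (0.968). The nearest genes were less close for Rbp4 (Actr8 0.773, Zfp689 0.769, 9530027J09Rik 0.762), Dhrs3 (Fam174b 0.878, Wsb2 0.858, Pik3r6 0.854) and Rdh10 (Nkx2-3 0.903, Srek1ip1 0.902, Dok2 0.888).

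The rest of the pathway was taken from lists of 82 genes in 5 classes, of which 81 were found. The shares of all genes called, beside which the counts stand, were 46.7% (iXEN cells, ESC medium), 25.0% (XEN cells, ESC medium), 32.6% (iXEN cells, XEN medium) and 47.5% (XEN cells, XEN medium). Of the 9 carriers and uptake genes tested, 2 rose and 5 fell in iXEN cells in ESC medium (median log2 fold change -1.10; 0.03 over all genes), 1 rose and 0 fell in XEN cells in ESC medium (median 0.58; -0.03 over all), 2 rose and 4 fell in iXEN cells in XEN medium (-0.72; 0.06), and 2 rose and 3 fell in XEN cells in XEN medium (-0.56; 0.02). Ttr, the plasma protein that holds Rbp4, rose in all 4, from 0.118 to 0.271 CPM in MEF to 21.7 to 153 CPM in iXEN cells in ESC medium (8.56, SE 1.03, edgeR adjusted p = 0.000256). Lrp2, an endocytic receptor that takes up Rbp4 among other cargo, rose in iXEN cells in ESC medium (4.64) and in iXEN and XEN cells in XEN medium (5.04 and 3.97). Lipoprotein lipase (Lpl) fell in iXEN cells in ESC medium (-5.88) and in iXEN and XEN cells in XEN medium (-4.78 and -5.85).

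Of the retinol and retinal conversion list, 2 of 14 rose and 4 fell in iXEN cells in ESC medium (median -0.75), 1 of 13 rose and 2 fell in XEN cells in ESC medium (-0.19), 1 of 14 rose and 1 fell in iXEN cells in XEN medium (-0.34), and 1 of 14 rose and 2 fell in XEN cells in XEN medium (-0.37). Dhrs9, a dehydrogenase of retinol, fell in iXEN cells in ESC medium (-6.58, SE 0.80) and in XEN cells in both media (-4.88 and -5.96). The alcohol dehydrogenase Adh5, a housekeeping enzyme with formaldehyde as its known substrate, rose in ESC medium (0.82 in iXEN and 0.87 in XEN cells) and XEN medium (1.30 and 1.07).

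In the acid synthesis and breakdown list, 1 of 6 rose and 4 fell in iXEN cells in ESC medium (median -2.51), 1 rose and 2 fell in XEN cells in ESC medium (0.59), 0 rose and 1 fell in iXEN cells in XEN medium (-2.98), and 1 rose and 2 fell in XEN cells in XEN medium (-0.55). Cyp26b1, the close relative of Cyp26a1, went the other way: it was at 21.1 to 30.4 CPM in MEF and fell in iXEN cells in ESC medium (-4.41, SE 0.66, edgeR adjusted p = 0.000831) and in XEN cells in ESC medium (-3.59) and XEN medium (-5.90). Cyp1b1, a cytochrome P450 with a wide range of substrates, fell in the same 3 groups (-10.23, -4.23 and -9.43), and Cyp2s1 rose in them (3.79, 4.18 and 2.57). Aldh1a1, another retinal-oxidising enzyme, fell in iXEN cells in XEN medium (-4.79, SE 0.89). Its range was 0 to 113 CPM over the XEN libraries in ESC medium, 2.56 to 2.80 CPM in MEF and no more than 0.203 CPM in iXEN cells in XEN medium.

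Of 15 receptors and cofactors, 1 rose in each comparison, the coactivator Ncoa3, and 6 fell in iXEN and 2 in XEN cells in ESC medium, and 5 in iXEN and 8 in XEN cells in XEN medium (medians -0.95, -0.92, -1.10 and -1.54). In all, 7, 3, 6 and 9 of the 15 were called, beside 46.7%, 25.0%, 32.6% and 47.5% of all genes. Unlike Rarb, which rose in 2 of these comparisons, Rarg fell from 88.5 to 106 CPM in MEF to 2.32 to 7.24 CPM in iXEN cells in ESC medium (-4.40, SE 0.37, edgeR adjusted p = 3.78e-05) and by 4.63 on the log2 scale in XEN cells in XEN medium. Rara fell in iXEN cells in XEN medium (-1.66, SE 0.30). Rxra, the shared partner of these receptors, fell in iXEN cells in ESC medium (-3.40) and in XEN cells in both media (-2.65 and -4.13).

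Of the genes known to respond to retinoic acid, 2 of 16 rose and 10 fell in iXEN cells in ESC medium (median -2.19), 1 of 16 rose and 1 fell in XEN cells in ESC medium (-1.22), 3 of 17 rose and 4 fell in iXEN cells in XEN medium (-1.28), and 3 of 17 rose and 6 fell in XEN cells in XEN medium (-0.64). Hoxb5 had 0 counts in iXEN cells in ESC medium and in XEN cells in XEN medium, which is at least 106-fold and 111-fold below MEF with a group's floor set at 3 counts. Rarres1 had 2 counts in iXEN cells in ESC medium, a ratio of 170 (95% counting interval 46.5 to 1410). Cdx2, a transcription factor of hindgut and trophoblast, had 0 counts in MEF and was at least 95-fold higher in XEN cells in XEN medium, at 0.318 to 5.97 CPM. The zinc finger gene Tshz1 fell in ESC medium (-4.19 in iXEN and -2.10 in XEN cells) and XEN medium (-2.87 and -3.62). Leaving out 1 library ended, for at least 1 choice of library, 11 of the 12 list calls chosen for naming in XEN cells in ESC medium, 4 of 15 in XEN cells in XEN medium (Cdx2, Cyp2s1, Dhrs9 and Lpl), 6 of 12 in iXEN cells in XEN medium (Adh5, Cd36, Gbx2, Lrp2, Ncor1 and Rdh11) and 0 of 15 in iXEN cells in ESC medium, and it turned no sign. Each call ended this way was lost without at least 1 of the MEF libraries, and 6, 2 and 4 of them also without a library of the endoderm group. In the comparisons between iXEN and XEN cells and between media, edgeR called 0 genes of these 5 lists.

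**Figure D5:**
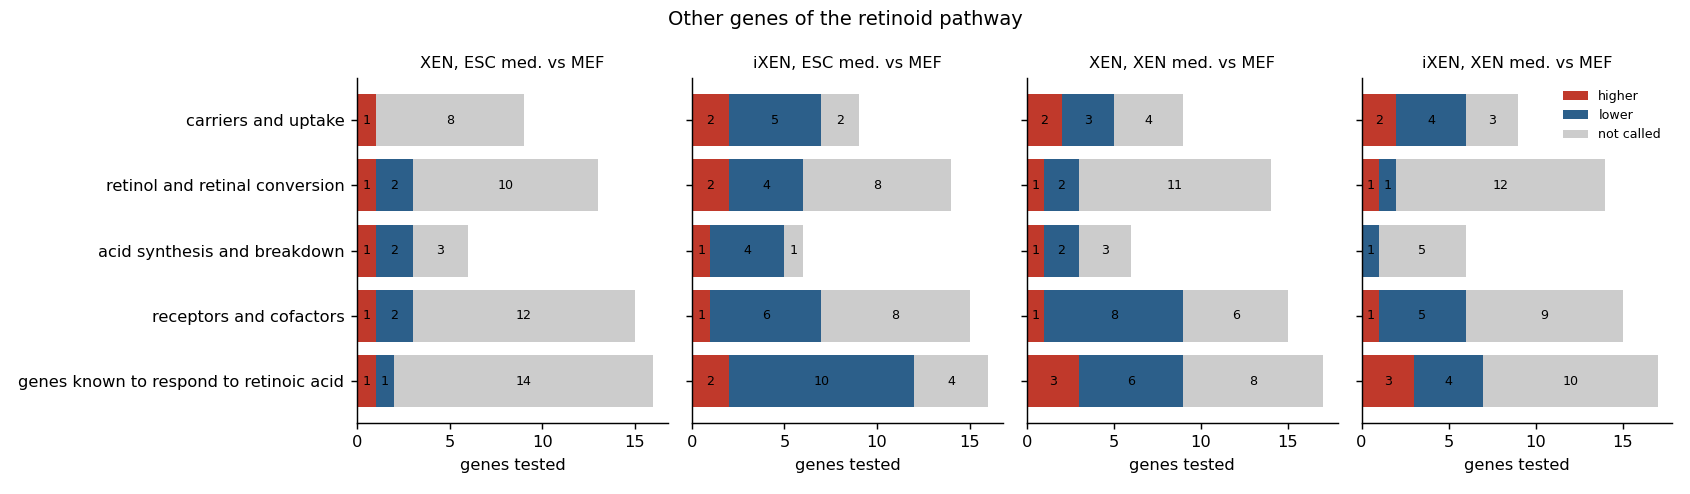
Number of tested genes in 5 lists of the retinoid pathway, without the 9 members, that edgeR called higher (red), called lower (blue) or did not call (grey) against MEF in the 4 groups of endoderm libraries. Among receptors and cofactors 1 gene is higher in each comparison and 2 to 8 are lower. Of all genes tested, 25.0% to 47.5% were called in these comparisons.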

How the data were processed

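Messenger RNA of 17 libraries was extracted with Trizol and prepared with the Illumina TruSeq mRNA kit, per the labels' protocols. The deposited files hold whole-number counts per gene symbol. The submitters' processing notes name FastQC 0.11.3, Trimmomatic 0.32, TopHat2 2.0.12, HTSeq 0.6.1 and build mm9. Their order, parameters, annotation and strand setting are unknown from these sources, so overlapping or antisense genes could share reads. Lines of the counter itself made up 20.8% to 33.1% of each file and were left out.

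Counts were tested with edgeR 4.0.16 in R 4.3.3: filterByExpr (minimum count 10, minimum total 15), TMM scaling (factors 0.863 to 1.16), the two-sided quasi-likelihood test and Benjamini-Hochberg adjustment over all genes tested at 0.05. Each fit used the compared groups alone. SE is the absolute log2 fold change over the square root of F. CPM use TMM factors over all 17 libraries, and correlations use log2 CPM with a prior count of 2. The fitting code was tested on simulated data. The 9 comparisons of the design and 1 added later are reported. The alternatives were RLE size factors, no filter, DESeq2 1.42.0, all 5 groups in 1 fit, each library left out, the 3 endoderm libraries highest in fibroblast markers left out, the XEN libraries numbered 7 left out, and a replicate block.

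The members and lists were chosen with earlier results of these data known. Named are all 9 members in each comparison, up to 3 called genes of each list and comparison with the largest absolute log2 fold change (with their other comparisons), and the 3 genes most correlated with each member. A few genes that this rule picks are not reported here. Nothing in the labels says that libraries of a group came from separate derivations, so p-values measure only the spread between these libraries. The 21 pairs of libraries within groups differed by 43.4 to 1219 chi-square units per degree of freedom, so each counted as 1 replicate. The labels give no batch. Deviations from the group means of same-numbered XEN libraries in ESC and XEN medium correlated at 0.240, 0.377 and 0.635 over genes, which was taken as pairing them. XEN 2 in ESC medium, however, correlated more with XEN 1 in XEN medium (0.428), so numbers 1 and 2 were not clearly paired. In iXEN cells the same-numbered values were 0.144, 0.181, 0.123 and -0.034, and those of differing numbers -0.138 to 0.127. These libraries were taken to share only a number. Promoter windows are from RefSeq for GRCm38.p6, another build than the files', so no other coordinates are given.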

Additional observations from a re-analysis of the deposited data

Results flagged for a closer look

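Among 18 sets of 4 iXEN libraries (9 genes in each medium), 4 held a library that stood apart from the other 3 by Dixon's criterion. The criterion marks about 1 in 20 sets where values are spread normally, which was not tested for these CPM. The sets of a medium also share the same 4 libraries, so 4 of 18 cannot be read as an excess. Crabp2 in iXEN cells in XEN medium was at 62.5 CPM in library 9, against 2.53 CPM in the next. Rdh10 was at 43.7 CPM in the same library, against 17.9 CPM in the next. Aldh1a2 in iXEN cells in XEN medium was at 0.221 CPM in library 2, where the next was at 0.0301 CPM, both near the level of a few counts. Cyp26a1 in iXEN cells in ESC medium was at 355 CPM in library 6, against 34.9 CPM in the next.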

How the results depend on the processing

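Stra6 was called higher in all 4 comparisons with MEF under every setting run, and no setting turned the direction of a member against MEF. The number of members called in XEN cells in ESC medium against MEF went from 3 to 6 by DESeq2, to 6 without the library highest in fibroblast markers, and to between 1 and 6 without single libraries (1 without any of the MEF libraries, 6 without XEN 1). DESeq2 called 2 members between iXEN and XEN cells in ESC medium, 1 in XEN medium, 2 between media in iXEN cells (Dhrs3 and Crabp1) and 2 in the interaction, where edgeR called 0. Between media in iXEN cells, the fit of all 5 groups called the same 2, and fits without single libraries 0 to 1. Over all genes, the count in XEN cells in ESC medium against MEF was 3507, with 5850 by DESeq2 and 372 to 6056 without single libraries, and that in iXEN cells in XEN medium 4708, with 7440 without iXEN 2 and 9 and 1842 to 5663 without single libraries. It was 6830 in XEN cells in XEN medium, with 3985 to 8965, and 6704 in iXEN cells in ESC medium, with 5064 to 8081. The fit of all 5 groups called 4476 in the last comparison. Between iXEN and XEN cells in ESC medium up to 49 genes, and between media in iXEN cells up to 416, were called without single libraries, where all libraries gave 0. The cause was not tested.

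Differences that turned their sign were all uncalled. With the replicate block, the medium effect in XEN cells was 0.70 for Rbp4, 0.26 for Rdh10 and 0.18 for Rarb, that in iXEN cells 1.53 for Cyp26a1, and the interaction 0.66 for Cyp26a1 and -0.45 for Rarb. The replicate block called 0 members in the XEN, iXEN and interaction fits, so no call changed. Dhrs3 with it was at -2.41 (adjusted p = 0.567) in XEN cells and -3.12 (0.0797) in iXEN cells. Without a filter Rarb was at -0.0167 between cell types in XEN medium and -0.0300 in the interaction, and in the fit of all 5 groups at -0.0058 in the interaction. Without the 3 libraries highest in fibroblast markers, Rarb was at -0.25 and -0.42 between cell types in ESC and XEN medium and -0.17 in the interaction, Crabp1 at -0.50 between cell types in XEN medium, and Cyp26a1 at -0.35 between media in XEN cells. Without the XEN libraries numbered 7, Rdh10 was at 0.68 between media in XEN cells and Dhrs3 at 0.19 in the interaction.

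Without single libraries, the medium effect in XEN cells ranged from -0.35 to 1.75 for Cyp26a1, -0.33 to 0.76 for Rarb, -0.82 to 1.82 for Rbp4, -1.32 to 1.66 for Rdh10 and -0.82 to 0.21 for Stra6. In iXEN cells it ranged from -1.22 to 1.67 for Cyp26a1, -0.34 to 0.29 for Rarb and -0.14 to 0.30 for Stra6. The difference between iXEN and XEN cells in ESC medium ranged from -0.25 to 0.88 for Rarb, -2.42 to 0.12 for Rdh10 and -0.47 to 0.24 for Stra6, and in XEN medium from -0.26 to 0.39 for Rarb, -1.21 to 0.23 for Rbp4, -1.28 to 0.20 for Rdh10 and -0.23 to 0.79 for Stra6. The interaction ranged from -2.58 to 1.52 for Cyp26a1, -1.002 to 0.43 for Dhrs3, -0.81 to 0.35 for Rarb, -0.89 to 2.06 for Rdh10 and -0.14 to 0.93 for Stra6. Aldh1a2 was under the filter outside the comparisons with MEF, with 155 counts in XEN 1 in ESC medium and few in the other endoderm libraries. Without the filter, edgeR gave -5.93 (adjusted p = 0.311) between iXEN and XEN cells in ESC medium and 2.55 (0.810) in XEN medium. Between media it gave -7.66 (0.803) in XEN cells and 0.77 (0.772) in iXEN cells. Crabp1 was under the filter in the medium comparison of iXEN cells, with high counts in 2 libraries and few in the other 6.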
